A study of Homo sapiens with 45 samples.

Results

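The CTCF regions described here were listed in HEK293T cells treated with IAA and lay at no region of any DMSO list. They are the distinct regions on chromosomes 1 to 22 and X of the IAA CTCF list that overlap, by 1 bp or more, none of the 4 DMSO lists (CTCF, MBD2, MBD3 and TET1). This rule kept 400 of the 543 IAA CTCF regions on these chromosomes, or 73.7%, and the other 143 lay at a DMSO region. The 400 regions were then split by overlap with the MBD2 list of cells treated with BPK25, which gave 150 regions with and 250 without an MBD2 region. The regions were thus chosen by presence in the CTCF list and absence from the DMSO lists, both calls that rest on pileup and its significance. Their number and their enrichment are therefore given as a description.

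HEK293T is an established human embryonic kidney line. The IAA cells received 0.5 mM IAA, the BPK25 cells 30 µM BPK25 and the control cells DMSO, each for 72 h, and 3 libraries were made for each treatment with each of the 4 antibodies, beside 9 input libraries. IAA is a plant auxin by which degron-tagged proteins can be depleted, and the labels name neither the protein it acts on here nor which libraries came from edited derivatives of the line. BPK25 is a compound known by its code name that has been described as depleting subunits of the NuRD complex. The authors pooled the 3 libraries before calling peaks, so each list gives 1 value per region with no replicate error. The labels do not say whether replicates were separate cultures, and no difference between treatments or antibodies was tested.

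CTCF is a zinc finger protein that binds a long DNA motif and, together with cohesin, sets the boundaries and anchors of chromatin loops. MBD2 carries a domain that binds methylated CpG and recruits NuRD, a complex that remodels nucleosomes and deacetylates histones and in which MBD3 can take its place. TET1 oxidises methylated cytosine. A genome and gene annotation of the build of the files, hg19, were not used here, so regions are given by position alone, with no sequence and no gene.

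Each region carries the authors' fold enrichment, a linear ratio of the pileup at the summit over the local background there. The pileup is the number of fragments stacked at the summit, and the local background is the number expected there from the control libraries. Both were recovered from the fold and the −log10 p of each region. The smallest local background of a list stands for the background of the whole genome and serves as a measure of depth. It was 0.937 fragments in the IAA CTCF list and 1.86 in the BPK25 MBD2 list, against 4.35 in the DMSO CTCF list and 3.77 in the DMSO MBD2 list. At a background equal to that of the genome, a region needed at least 8 fragments to reach the least −log10 p of the IAA CTCF list, 10 fragments in the BPK25 MBD2 list and 14 fragments in the DMSO CTCF list.

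The 400 regions absent from DMSO held nearly all of the strongest CTCF regions under IAA. Of the 50 IAA CTCF regions of highest fold, 49 were absent from DMSO, as were 97 of the highest 100. The share was 73.7% over all 543 regions and 88.4% over the 447 with at most 3 times the background of the genome. The fold of the 400 absent regions had a median of 7.97 (95% order-statistic interval 7.30 to 8.78) and ran between 1.31 and 70.4. At the 143 regions that lay at a DMSO region the median was 2.56 (2.12 to 3.93). A fold of 10 or more was found at 143 of the 400 absent regions (35.75%, Wilson interval 31.2 to 40.6) and at 3 of the 143 regions at DMSO (2.098%, 0.716 to 5.99).

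Local background differed between these groups. It was at most 3 times that of the genome at 395 of the 400 absent regions (98.75%) and at 52 of the 143 regions at DMSO (36.4%, 28.9 to 44.5). At 123 of the absent regions it equalled the background of the genome within 0.1%, against 2 of the regions at DMSO. Among regions with at most 3 times the background of the genome, those at DMSO had a median fold of 6.17 (5.18 to 6.89), closer to that of the absent regions. The high folds of the absent regions thus came with a background near the genome's, and the low folds of the regions at DMSO came mostly with a raised one.

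Of the 5 absent regions with a higher background, 4 had a fold under 3. A region on chromosome 6 from 58778796 to 58779026 (hg19) had 715 fragments on a background of 545 and a fold of 1.31. On chromosome 19, from 27733091 to 27733273, the pileup was 694 fragments and the fold 1.71. The region on chromosome 1 from 566467 to 566673 had 233 fragments and a fold of 1.35. These 3 had no BPK25 MBD2 region, whereas a region on chromosome 18 from 108086 to 108499 (133 fragments, fold 1.54) and another on chromosome 10 from 74034984 to 74035449 (32 fragments, fold 7.64) had one.

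Regions that recurred in the BPK25 MBD2 list were the stronger ones in the IAA CTCF list. The 150 regions with a BPK25 MBD2 region had a median CTCF fold of 15.3 (13.3 to 17.6) and a median pileup of 33 fragments. The 250 regions without one had a median fold of 6.44 (6.16 to 6.71) and a median pileup of 13 fragments. A fold of 20 or more was found at 50 regions with MBD2 and at 0 of the 250 without. Local background did not follow the split, with a median of 1.18 times the background of the genome in both groups.

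**Figure D1:**
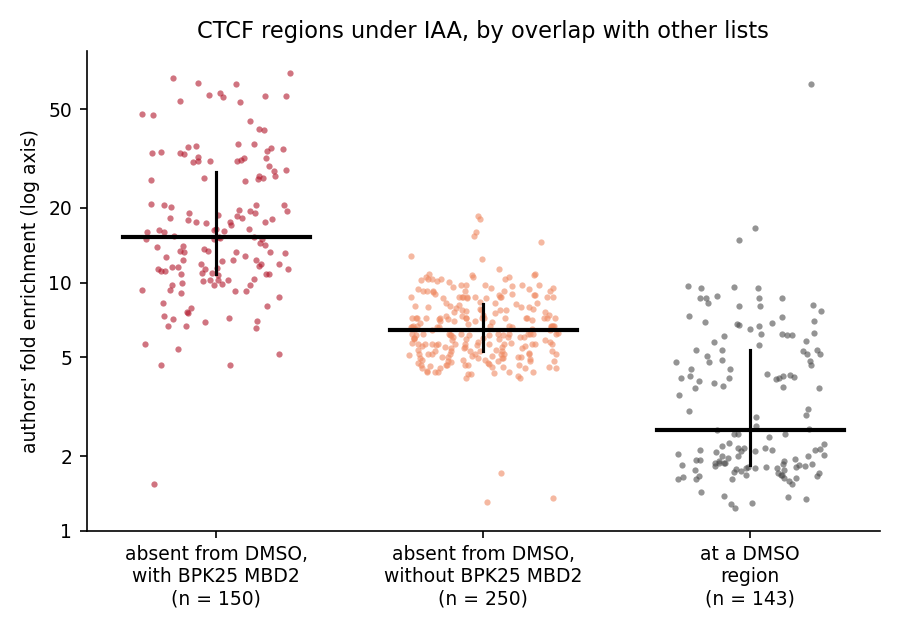
Authors' fold enrichment (log axis) of 543 IAA CTCF regions, 1 point per region, with the median as a horizontal bar and the quartiles as a vertical line. The 150 regions absent from DMSO with a BPK25 MBD2 region centre on 15.3, the 250 without one on 6.44, and the 143 at a DMSO region on 2.56.

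The recurring regions were also wider. Their median width was 449 bp (406 to 503), against 269.5 bp (252 to 287) without BPK25 MBD2. A width of 500 bp or more was found at 63 of 150 regions with MBD2 (42.0%) and at 19 of 250 without (7.60%). The widest region measured 1719 bp, and 13 regions with MBD2 but 1 without reached 1000 bp. The caller split 28 regions with MBD2 and 12 without into several sub-peaks.

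The recurring regions also had the higher pileups, so widths were compared at like pileup, where they differed less. Among regions with 16 to 20 fragments and a background of at most 3 times the genome's, the median width was 412 bp (319 to 580) at 20 regions with MBD2 and 312 bp (282 to 331) at 67 without. With 21 to 30 fragments it was 445 bp (345 to 508) at 39 regions with MBD2 and 399 bp (303 to 435) at 17 without. The intervals overlap in both ranges of pileup.

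The CTCF regions of highest fold that recurred for MBD2 under BPK25 were sharply enriched on a plain background. The first, on chromosome 5 from 177482576 to 177483186, had 163 fragments and a fold of 70.4 for CTCF under IAA, and 91 fragments and a fold of 25.9 for MBD2 under BPK25. On the X chromosome, from 39646321 to 39647459, CTCF had 136 fragments and a fold of 67.0, and MBD2 had 66 fragments and a fold of 19.1. On chromosome 3, positions 142545955 to 142546526 held a region with folds of 63.6 for CTCF and 12.3 for MBD2. In these 3 regions, as in the next 7, the CTCF pileup under IAA exceeded the MBD2 pileup under BPK25.

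A second region on chromosome 5, from 55800476 to 55800943, had 121 fragments for CTCF under IAA and 64 for MBD2 under BPK25. On chromosome 14, from 66479474 to 66480259, there were 112 CTCF and 57 MBD2 fragments. The region on chromosome 10 from 98510022 to 98510624 had 119 and 68 fragments in the same order of lists. Summits of the 10 strongest regions lay close together in the pair of lists. The summit of CTCF was 67 bp from that of MBD2 at the chromosome 14 region, and between 1 and 21 bp away at the other 9.

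The other 4 of these 10 regions had CTCF folds between 54.0 and 56.5. They lay at chr3:101295335-101295832, chr12:63359081-63359466, chr5:130325597-130326062 and chr6:42924122-42924507. Their MBD2 folds under BPK25 were 14.3, 15.1, 14.3 and 11.5 in that order. At the chromosome 6 region the borders called in the 2 lists differed by 1 bp at the start and 3 bp at the end, and the distance to the nearest DMSO region was 7195 bp. At the chromosome 12 region that distance was 103151 bp.

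The strongest regions without BPK25 MBD2 reached lower folds. A region on chromosome 16 from 51680204 to 51680760 had 36 fragments and a CTCF fold of 18.6. On the X chromosome, from 46299594 to 46300061, there were 34 fragments and a fold of 18.1, and on chromosome 13 from 23270275 to 23270681 there were 30 fragments and a fold of 16.0. The region on chromosome 8 from 134250110 to 134251130 had 34 fragments, a fold of 15.5 and a width of 1021 bp. Each of these CTCF regions appeared in no other treated list.

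Another 6 regions completed the 10 of highest fold without BPK25 MBD2. On chromosome 16, from 69790721 to 69791276, the fold was 14.6, and a DMSO TET1 region lay 1706 bp away. A region on chromosome 1 from 192685274 to 192685661 had a fold of 12.8, and one on chromosome 6 from 44219476 to 44219947 had 35 fragments and a fold of 12.4. On chromosome 10 from 122114302 to 122114736 the fold was 11.4 on 21 fragments. The last 2, at chr14:28733788-28734170 and chr3:174095358-174095780, had the same fold of 10.8 on 20 fragments each. Counts of this size carry a wide counting error, so the order within this group is loose.

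The share of regions that recurred followed the pileup in the IAA CTCF list closely. Of the absent regions with a background of at most 3 times the genome's, 3 of 58 with 8 to 10 fragments had a BPK25 MBD2 region (5.17%, 1.77 to 14.1). The share was 20 of 87 at 16 to 20 fragments (22.99%, 15.4 to 32.9) and 39 of 56 at 21 to 30 (69.6%, 56.7 to 80.1). It reached 37 of 41 at 31 to 50 fragments (90.2%, 77.5 to 96.1) and 43 of 43 at 51 to 163 fragments (100%, 91.8 to 100). By rank of fold, 43 of the regions ranked 51 to 100 recurred, 31 of those ranked 101 to 150 and 9 of those ranked 151 to 200.

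The pileups were set beside the limit of the BPK25 MBD2 list. At the 82 recurring regions with 31 or more fragments under IAA, the MBD2 pileup was 0.568 times the CTCF pileup at the median. Scaled by that ratio, 0 of the 168 low-background regions with 15 or fewer fragments would pass the least −log10 p of the MBD2 list, whereas 9 of them were in that list. The scaled numbers were 32 of 87 with 16 to 20 fragments and 50 of 56 with 21 to 30. Among the 250 regions without MBD2, 37 (14.8%) would pass it. Scaled by the median ratio over all 150 recurring regions, 0.658, the number was 67 (26.8%, 21.7 to 32.6), and under stricter −log10 q limits the share ran from 8.42% to 40.3%. Both ratios come only from regions that the MBD2 list named, and the part of its limit in the split was not tested.

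**Figure D2:**
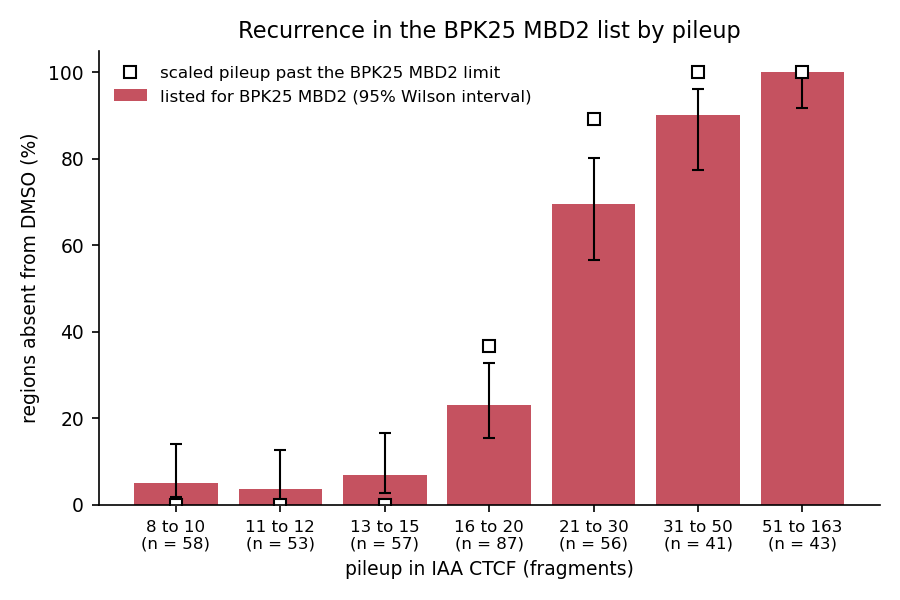
Share of the IAA CTCF regions absent from DMSO that had a BPK25 MBD2 region (bars, 95% Wilson intervals), by pileup in the IAA CTCF list, for the 395 whose local background did not exceed 3 times the genome's. Open squares give the share whose pileup, scaled by 0.568, passes the limit of the BPK25 MBD2 list, and bars and squares both climb from near 0% at 8 to 10 fragments to 100% at 51 to 163 fragments.

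Only 4 of the low-background regions with 31 or more fragments had no BPK25 MBD2 region. They are the regions on chromosomes 16 (36 fragments), X (34), 8 (34) and 6 (35, from 44219476) named above. Their scaled MBD2 pileups came to 20.5, 19.3, 19.3 and 19.9 fragments, against the 10 fragments that the MBD2 list needed at its genome background. A few recurring regions with little CTCF signal had a higher MBD2 pileup. At 8 CTCF fragments, a region on the X chromosome from 56763752 to 56763936 had 11 MBD2 fragments, and at 10 CTCF fragments, a region on chromosome 13 from 82264160 to 82264550 had 21.

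Where both lists named a region absent from DMSO, CTCF under IAA gave the larger pileup although its list was the shallower one. The pileup was higher for CTCF under IAA at 132 of the 150 shared regions and higher for MBD2 under BPK25 at 15. The ratio of the CTCF to the MBD2 pileup had a median of 1.52 and quartiles of 1.24 and 1.81. At the regions that both lists shared with DMSO, the CTCF pileup was higher at 4 of 58 and the median ratio was 0.477 (quartiles 0.403 and 0.565). The genome background of the MBD2 list was 1.99 times that of the CTCF list. At the median, pileups at shared regions that lay at DMSO thus differed about as much as the depths of the lists. Pileups at absent regions differed the other way. Of the 58 regions at DMSO, 39 had over 3 times the genome background.

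The regions at DMSO with a low background showed the same order. There were 19 with a BPK25 MBD2 region and at most 3 times the genome background. The pileup was higher for CTCF under IAA at 4 of them and for MBD2 under BPK25 at 14. Their median ratio was 0.429, with wide quartiles of 0.338 and 0.921. The ratio varied among the absent regions as well, from 0.416 on chromosome 18 (108086 to 108499, the region of raised background) to 3.47 on chromosome 4 from 88813233 to 88814883. In that region CTCF had 59 fragments and MBD2 had 17. On the X chromosome from 91368376 to 91369196 the ratio was 3.19, and on chromosome 9 from 135894810 to 135896456 it was 2.83 at 99 CTCF and 35 MBD2 fragments. Of the 5 regions with the highest ratios, 3 spanned 1000 bp or more for CTCF.

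The spread of the ratio was somewhat larger than counting alone gives. The mean squared deviation of the pileups from 1 constant ratio, in units of counting noise, was 1.56 over the 148 shared absent regions of low background and 2.80 with the 2 of raised background included. Between CTCF and MBD2 in DMSO it was 1.00 over 11634 shared regions. For IAA CTCF and BPK25 MBD2 at their 58 shared regions at DMSO it was larger, 6.86, and 9.57 at the 19 of low background. Across the 150 shared absent regions, the CTCF fold and the MBD2 fold had a Spearman correlation of 0.777, and the pileups one of 0.804. For CTCF and MBD2 in DMSO these were 0.708 and 0.814. At the IAA CTCF regions at DMSO with BPK25 MBD2 they were 0.878 and 0.925, and 0.304 and 0.332 at the 19 of low background. All are descriptions over regions of pooled lists. IAA CTCF and BPK25 MBD2 share no library by their labels but share the genome's sequence and mappability.

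**Figure D3:**
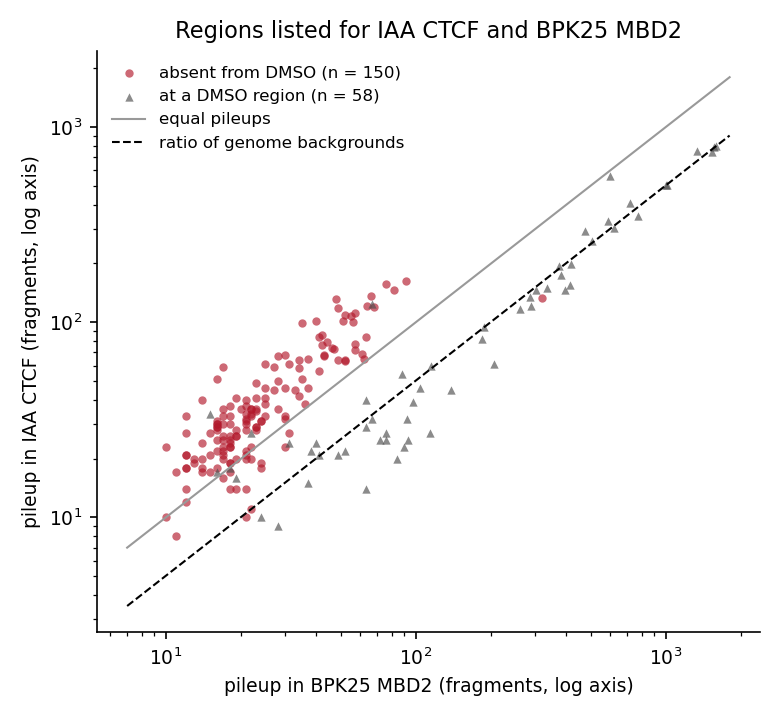
Pileup in IAA CTCF against pileup in BPK25 MBD2 (fragments at the summit, log axes) for regions in both lists, with 150 regions absent from DMSO as circles and 58 regions at DMSO as triangles. Circles lie mostly above the line of equal pileups (132 of 150), and triangles scatter around the dashed line, the 1.99-fold ratio of the genome backgrounds.

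Positions in the pair of lists mostly matched, though summits lay further apart than those of CTCF and MBD2 in DMSO. Summits of the 150 shared regions were 20 bp apart at the median, within 50 bp at 110 regions (73.3%) and more than 150 bp apart at 21. For CTCF and MBD2 in DMSO the median was 11 bp, and 94.1% lay within 50 bp. At the 59 IAA CTCF regions at DMSO with BPK25 MBD2 these values were 18 bp and 76.3%. The MBD2 region lay wholly inside the CTCF region at 131 (87.3%), and its median width was 313 bp against 449 bp for CTCF. At 79 regions (52.7%, 44.7 to 60.5) at least 1 border was the same within 10 bp, and at 13 (8.67%) both were. For CTCF and MBD2 in DMSO these shares were 43.4% (42.5 to 44.3) and 7.06%, so borders coincided in both pairs of lists. Within 50 bp the DMSO pair matched more often. Starts lay that close at 54.7% of the 150 regions and 75.4% of the DMSO pair, and ends at 63.3% and 75.2%.

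Absent regions recurred in the BPK25 MBD2 list about as often as other IAA CTCF regions, and in the other treated lists far less often, which for the 3 IAA lists was not so among regions of low background. Of all 543 IAA CTCF regions, 38.5% had a BPK25 MBD2 region. The share was 37.5% (32.9 to 42.3) at the 400 absent regions and 41.3% (33.5 to 49.5) at the 143 regions at DMSO, so a count near this background says nothing particular of the absent regions. The shares for the other lists differed, and the rule itself bears on them. A treated region that lies at a DMSO region can hardly overlap an absent one, so mainly treated regions off DMSO could be counted. Off DMSO lay 221 regions of BPK25 MBD2, 140 of BPK25 CTCF, 164 of BPK25 MBD3 and 41 of BPK25 TET1. Of these, 156, 1, 1 and 0 in that order lay at absent regions. In the IAA lists, 11 regions of MBD2, 2 of MBD3 and 3 of TET1 lay off DMSO, with 9, 1 and 2 at absent regions. No other treated list was found at 248 of the 400 regions, 1 at 142, 2 at 9 and 3 at 1.

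Among the BPK25 lists, CTCF named 1 of the 400 absent regions (0.25%, 0.0441 to 1.40), where 10.1% of all 543 IAA CTCF regions had a BPK25 CTCF region. MBD3 also named 1 (0.25%), against 11.8% of all 543, and TET1 named 0 (Wilson upper bound 0.951%), against 10.5%. At the 143 regions at DMSO the shares were 37.8%, 44.1% and 39.9%. Restricted to regions with at most 3 times the genome background, they were 13.5% (6.68 to 25.3), 17.3% (9.38 to 29.7) and 44.2% (31.6 to 57.7) at 52 regions, against 0.253%, 0.253% and 0% at 395 absent ones.

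Depth touches these shares for some lists. The genome background was 0.273 times that of IAA CTCF in BPK25 CTCF and 0.399 times in BPK25 MBD3, so these lists were shallow. The region that BPK25 CTCF named, on chromosome 11 from 16996257 to 16996593, had 6 fragments there, 49 for MBD2 under BPK25 and 64 for CTCF under IAA. BPK25 MBD3 named the strongest absent region of all, on chromosome 5 from 177482576, at 7 fragments. BPK25 TET1 was deeper than IAA CTCF, at 1.24 times its genome background, and named none of the 400. Only 41 of its 752 regions lay off the DMSO lists, so few could fall on an absent region. The part of the rule in this share was not tested.

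Among the IAA lists, MBD2 named 8 of the absent regions (2.00%, 1.02 to 3.90), against 13.1% of all 543. MBD3 named 1 (0.25%, against 8.84%) and TET1 named 2 (0.50%, 0.137 to 1.80, against 9.76%). The genome backgrounds of these 3 lists were 1.15, 0.972 and 1.21 times that of IAA CTCF, so depth was alike. The shares at the 143 regions at DMSO were 44.1%, 32.9% and 35.7%, but at those with at most 3 times the genome background this difference was not seen. There, MBD2 under IAA named 7 of 395 absent regions (1.77%, 0.861 to 3.61), against 1 of 52 at DMSO (1.92%, 0.340 to 10.1), MBD3 named 0 and 1, and TET1 none of either. The MBD3 region and 1 each of the MBD2 and TET1 regions lay at the high-background region on chromosome 1 from 566467, and the other TET1 region at the one on chromosome 6 from 58778796.

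The other 7 regions of IAA MBD2 were among the strongest absent CTCF regions, and all 7 also had a BPK25 MBD2 region. Their CTCF folds under IAA lay between 33.0 and 58.3, and they were 7 of the 35 absent regions with a fold of 30 or more. The region on chromosome 3 from 185135325 to 185136623 had 100 fragments for CTCF under IAA, 17 for MBD2 under IAA and 56 for MBD2 under BPK25. On chromosome 6, from 42924122, these pileups were 147, 17 and 82. The ratio of CTCF to MBD2 pileup within the IAA treatment had a median of 7.47 and ran between 4.60 and 9.92.

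Seen from the MBD2 list of IAA, these regions were most of what it held on a plain background. Of its 95 regions on chromosomes 1 to 22 and X, 11 had at most 3 times the genome background, and 8 of these 11 lay at absent CTCF regions. These 8 are counted as IAA MBD2 regions, and the 7 above as CTCF regions. Those 7 CTCF regions were listed for CTCF under IAA, MBD2 under BPK25 and MBD2 under IAA. The CTCF pileup under IAA was the highest of the 3 at each. Whether these libraries share fragments, and where the recurring positions lie relative to exons and their copies in the genome, was not tested, which limits what the recurrence, the pileup ratios and the matching borders can show.

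**Figure D4:**
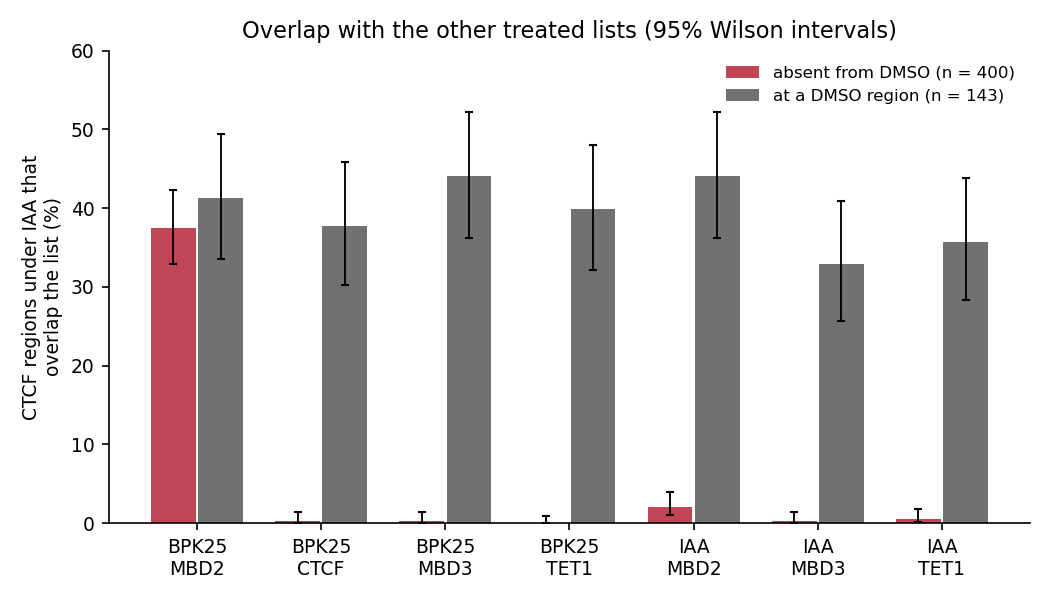
Share of the CTCF regions under IAA that overlap each of the 7 other treated lists by 1 bp or more, for the 400 regions absent from DMSO and the 143 at a DMSO region (bars, 95% Wilson intervals). The absent regions reach 37.5% for BPK25 MBD2 and at most 2.00% for any other list, and the regions at DMSO lie between 32.9% and 44.1% throughout. By the rule, absent regions can hardly overlap treated regions that lie at DMSO.

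The DMSO CTCF list, in which these regions were missing, was the deeper one. It had 4.64 times the genome background of the IAA CTCF list. At equal depth a region under IAA with the fewest fragments the list allowed, 8, would correspond to 37.1 fragments in DMSO, where 14 were needed at the genome background. Every region listed under IAA therefore lies past the DMSO limit once scaled, by construction, and the part of depth in the absence was not tested.

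Most absent regions lay more than 10000 bp from the nearest DMSO region, and no comparison with other positions was made. The nearest DMSO region was 28322.5 bp away at the median, more than 10000 bp away for 275 regions (68.75%) and more than 100000 bp away for 66. With and without BPK25 MBD2 the median distances were 26493 bp (interval 16469 to 32583) and 29006.5 bp (23302 to 36328), which overlap. A DMSO region lay within 1000 bp of 29 regions, 13 of them with BPK25 MBD2. The nearest DMSO region belonged to CTCF for 177 of the 400, to MBD2 for 133, to MBD3 for 48 and to TET1 for 42, in the order of the lengths of these lists.

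The rule drew a hard line through some near cases. Just outside the DMSO lists lay a region on chromosome 6 from 74227301 to 74228328, counted 61 bp from a DMSO CTCF region, with 25 CTCF fragments, a fold of 9.28, 3 sub-peaks and an MBD2 pileup of 16 under BPK25. A region on chromosome 12 from 112846248 to 112846427 lay 80 bp from a DMSO MBD2 region and had a fold of 8.00. Just inside lay a region of fold 16.6 on chromosome 11 from 18428806 to 18429350, which shared 46 bp with a DMSO CTCF region. Its summit was 331 bp from the DMSO CTCF summit and 4 bp from that of BPK25 MBD2. Another on that chromosome, from 65267891 to 65268401, shared 49 bp with a DMSO TET1 region and had a fold of 6.94.

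A further region left out by the rule resembled the strongest absent ones in its values, and it is named after they were seen. On chromosome 2, from 38708916 to 38709908, CTCF under IAA had 124 fragments and a fold of 63.2, and MBD2 under BPK25 had 67 fragments and a fold of 21.9. It overlapped a DMSO MBD2 region of 16 fragments and fold 3.56, and no DMSO region of CTCF. The DMSO MBD2 list held fewer fragments at this place although its genome background was 3.77 fragments, against 0.937 for CTCF under IAA.

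The absent regions were spread over the genome as mostly single peaks. Neighbouring regions on a chromosome were 4.02e+06 bp apart at the median of 377 gaps, and 15 pairs lay within 1000 bp. Joining regions within 5000 bp gave 375 loci, of which 24 held several regions, 1 of them 3. Of these 24 loci, 3 had BPK25 MBD2 at every region, 15 at none and 6 at some, so neighbours could fall on both sides of the split. At the longest, on chromosome 1 from 8921198 to 8926554, the locus spanned 5357 bp and 1 of its 2 regions had BPK25 MBD2.

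All 23 chromosomes held some of the 400 regions, from 2 on chromosome 21 to 44 on chromosome 1. Chromosome 12 held 35 (8.75%, 6.36 to 11.9) and the X chromosome 27 (6.75%, 4.68 to 9.64), while DMSO CTCF regions on these chromosomes made up 5.19% and 4.31% of their list. On chromosome 9 there were 21 (5.25%, 3.46 to 7.89, against 3.11% of DMSO CTCF regions). Chromosome 4 had 10 (2.50%, 1.36 to 4.54, against 5.17%) and chromosome 17 had 14 (Wilson interval 2.096 to 5.79%, against 5.41%). The DMSO CTCF share lay inside the Wilson interval for chromosome 17 and outside it for chromosomes 4, 9, 10 (12 regions, 1.72 to 5.17%, against 5.36%), 12 and X, out of 23 chromosomes looked at. Per 1000 DMSO CTCF regions the numbers lay between 10.5 on chromosome 22 and 39.1 on chromosomes 9 and 12. All 4 regions of chromosome 18 and all 4 of chromosome 22 had BPK25 MBD2, and the other chromosomes held regions of both kinds.

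**Figure D5:**
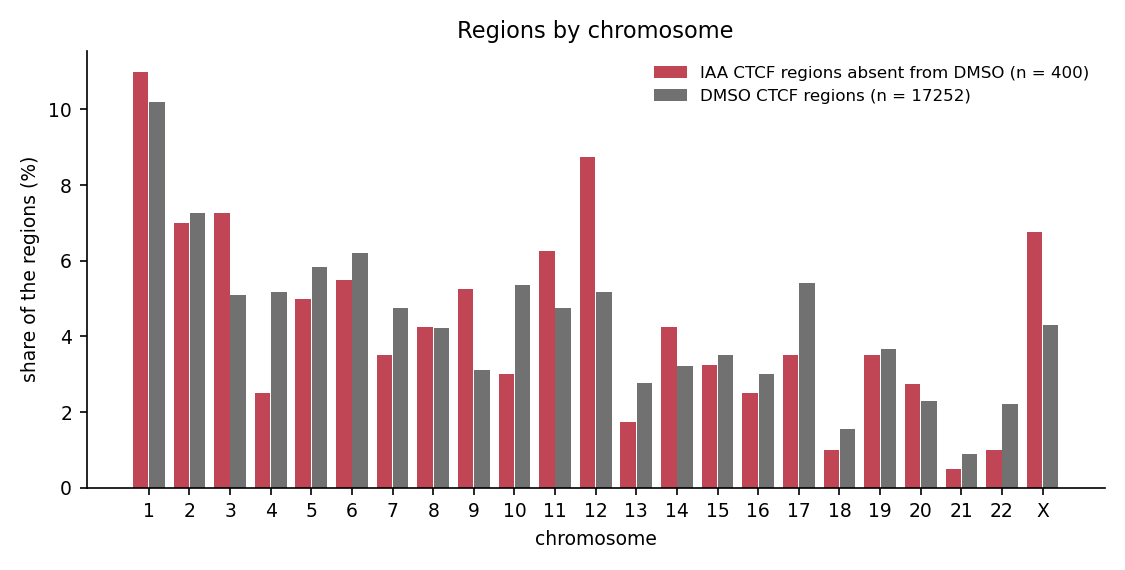
Share of the 400 IAA CTCF regions absent from DMSO and of the 17252 DMSO CTCF regions that lie on each chromosome. Chromosomes 12 (8.75% and 5.19%) and X (6.75% and 4.31%) hold a larger share of the absent regions. Chromosomes 4 (2.50% and 5.17%) and 10 (3% and 5.36%) hold a smaller one.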

How the data were processed

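ChIP-seq of 36 immunoprecipitated and 9 input libraries was deposited as 12 peak lists, 1 for each antibody in each treatment, with replicates 1 to 3 pooled by the authors before calling, per the labels. The submitters' processing notes name MACS2 2.1.2 and bedtools 2.25.0, Bowtie2 2.3.4 and the build hg19. Settings of the caller are not stated in the labels. The deposited lists give a fold enrichment (a linear ratio), −log10 values of p and q, a score that rescales −log10 q, and the offset of the summit. All of them come from the authors' caller, and ranks and filters were applied inside 1 list at a time. Folds, and pileups recovered from the fold and −log10 p, were also set side by side between lists. Scaled pileups were set against the least −log10 p of another list.

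Sub-peaks with equal borders were merged, keeping the values of the most significant. The fold was taken as (pileup + 1) over (local background + 1), and p as a Poisson tail. The whole-number pileup that meets both was found for 593 of 593 regions of the IAA CTCF list and 509 of 510 of the BPK25 MBD2 list (tolerance 0.02% of the −log10 p, or 0.002; a −log10 p over 290 was not tried). Depth per library is unknown. Distances run from the last base of a region to the first of the next. Intervals are at 95% (Wilson for shares, order statistics for medians) and cover counting over regions only.

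Regions named in the text have a −log10 q of 5 or more and are the 10 of highest CTCF fold with and without BPK25 MBD2, any in 3 or more other treated lists (none reached that −log10 q), the 2 nearest to DMSO and the 2 with the shortest DMSO overlap. Other regions are named where they are exceptions, after their values were seen. Regions and comparisons were chosen with earlier results of these data known. Alternatives were stricter limits on −log10 q and fold, 50% overlap, summits within 150 bp, DMSO regions widened by 1000 bp, all sequences, DMSO CTCF alone, low background, and other pileup ratios and limits. Scripts were tested on simulated data and used Python 3.11.15, numpy 2.4.6, pandas 2.3.3, SciPy 1.17.1 and matplotlib 3.10.9.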

Additional observations from a re-analysis of the deposited data

Results flagged for a closer look

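The IAA CTCF list held 4 mitochondrial regions, which no comparison above used, against 0 in each of the 4 DMSO lists. Their pileups lay between 1461 and 1724 fragments on backgrounds of 1128 to 1240, with folds of 1.23 to 1.53.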

How the results depend on the processing

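Across the alternatives tried, 66 values stayed within 1.5 times the reported count or inside the reported 95% interval, and 10 did not. The number of IAA CTCF regions absent from DMSO lay between 304 and 417, and the share with BPK25 MBD2 between 33.8% and 47.7%, the highest with a −log10 q of 5 or more asked of the IAA CTCF list alone (145 of 304). That setting, chosen after seeing the data, gave a median CTCF fold of 7.56 without MBD2, and 40.3% of the regions without MBD2 had a scaled pileup past the MBD2 limit. With the same limit on both the IAA CTCF and the BPK25 MBD2 list, the median CTCF fold was 18.3 with and 7.95 without BPK25 MBD2, the median MBD2 fold 7.68, and the share of regions without MBD2 past the MBD2 limit 8.42%. With a fold of 5 or more, the median fold without MBD2 was 7.02. Each filter removes weak CTCF regions by construction, and the limit on both lists also moves regions from the group with MBD2 to the group without. With the lower quartile of the pileup ratio, the share past the MBD2 limit was 11.6%, and with the ratio at 31 or more fragments, also chosen afterwards, 14.8%. Joining regions within 5 kb, also chosen afterwards, gave 375 loci, 39.2% of them with MBD2. Leaving out single replicates was not run, since the lists pool all 3. No paired analysis was possible because the lists carry no values per replicate. Sequence content and position relative to genes were not run without an hg19 genome. Pileups near 8 to 10 fragments limit what weak regions show.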

Other observations

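On chromosomes 1 to 22 and X, the MBD2 list under BPK25 held 221 regions that overlapped no DMSO list, and 157 of them overlapped a CTCF region under IAA. Those 157 had a median MBD2 fold of 6.42 and a median pileup of 22 fragments. The other 64 had a median fold of 4.17 and a median pileup of 14 fragments, and their highest fold was 5.93.

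Off these chromosomes, 52 CTCF regions were listed under IAA, of which 17 overlapped no DMSO region and 5 of those had a BPK25 MBD2 region. A single unplaced contig held 8 of the 17, with pileups of 33 to 109 fragments on backgrounds of 5.37 to 12.3 and folds of 3.72 to 8.43.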
